A study of Mus musculus with 14 samples.

Results

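Long non-coding RNA (lncRNA) genes that stand apart from protein-coding genes were examined for histone H3 lysine 9 crotonylation (H3K9cr) and H3 lysine 9 acetylation (H3K9ac) in mouse kidney. A gene of RefSeq biotype lncRNA on an autosome was taken as isolated when both of its ends lay more than 10 kb from every end of a protein-coding gene and outside protein-coding gene bodies. Of 47042 autosomal genes of the GRCm38.p6 annotation, 5587 met this rule, beside 6821 other lncRNA genes and 20665 protein-coding genes. An isolated gene was scored in a library as carrying a mark when a ChIP-seq peak overlapped the 3 kb on either side of either end by at least 1 bp. The rule itself uses no peak, although it was chosen with earlier results of these data known. Genes that lie over or beside each other share peaks, and the 5587 genes formed 4830 separate loci, 4195 of them of 1 gene and none of more than 5. At 22 genes the body spans an end of a protein-coding gene although both of its own ends are far from one.

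The kidneys came from C57BL/6J wild-type (WT) mice and from mice with a whole-body knockout of ACSS2 (ACSS2-/-), young adults according to the methods. Within each genotype there were control kidneys and kidneys after unilateral ureteric obstruction (UUO), in which the left ureter is tied off and the kidney scars. H3K9cr had 2 libraries in each of the 4 groups. H3K9ac had 2 libraries per UUO group and only replicate 2 of the control groups, so that 8 H3K9cr and 6 H3K9ac libraries were analysed. Whole kidney tissue was used, so fewer cells of a type and less of a mark per cell cannot be told apart. The antibody catalogue numbers in the labels rise by 1 from group to group for both marks, so the numbers actually used are not known. The labels also do not say that replicates are separate mice, so the p-values measure the spread between these libraries.

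LncRNA genes are transcribed into RNAs without a long open reading frame, often at low levels and in few cell types. Some act as scaffolds or guides for chromatin and splicing factors, some are mainly host transcripts of microRNAs (miRNAs) or small nucleolar RNAs, and many annotated loci overlap enhancers or have no known function. H3K9ac and H3K9cr are short acyl groups on the same lysine residue, both found mainly at the start sites of active genes and at active enhancers, and ACSS2 makes acetyl-CoA and crotonyl-CoA, the substrates for them. Away from protein-coding genes, a mark near a lncRNA gene end is not shared with the promoter of a coding neighbour.

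The sequences of 7 start regions are given because they stand for the patterns described here, and were chosen after the peaks were known. Each holds 300 bases, from 250 before to 50 after the annotated start, from RefSeq on GRCm38.p6, written 5′ to 3′ on the gene's own strand with CG dinucleotides in capitals. CG dinucleotides are dense in many promoters of widely expressed genes. Malat1, at chr19:5802623-5802922 on the minus strand with 10 CG, and Snhg5, at chr9:88522848-88523147 on the minus strand with 36 CG, lay under peaks in all 14 libraries. Gm26901, at chr1:7398047-7398346 on the minus strand with 18 CG, lay under H3K9cr peaks in 8 of 8 libraries and under H3K9ac in the 2 control libraries only. Gm30944, at chr3:85022666-85022965 on the plus strand with 9 CG, lay under H3K9cr in 8 of 8 libraries and under H3K9ac in 0 of 6. Gm5524, at chr1:27883796-27884095 on the plus strand with 0 CG, lay under H3K9cr in the 4 control libraries only. Gm40645, at chr10:51526214-51526513 on the minus strand with 7 CG, had peaks near its ends in UUO libraries only, and 3 of the 4 H3K9cr peaks and 3 of the 4 H3K9ac peaks reached this stretch. Mirg, at chr12:109734731-109735030 on the plus strand with 10 CG, lay under no peak.
Malat1: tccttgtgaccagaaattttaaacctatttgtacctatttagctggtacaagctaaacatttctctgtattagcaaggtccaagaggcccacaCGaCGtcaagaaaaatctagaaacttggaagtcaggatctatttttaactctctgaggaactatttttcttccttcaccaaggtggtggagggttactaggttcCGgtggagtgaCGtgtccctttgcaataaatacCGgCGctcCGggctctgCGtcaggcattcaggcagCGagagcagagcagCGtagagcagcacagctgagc
Snhg5: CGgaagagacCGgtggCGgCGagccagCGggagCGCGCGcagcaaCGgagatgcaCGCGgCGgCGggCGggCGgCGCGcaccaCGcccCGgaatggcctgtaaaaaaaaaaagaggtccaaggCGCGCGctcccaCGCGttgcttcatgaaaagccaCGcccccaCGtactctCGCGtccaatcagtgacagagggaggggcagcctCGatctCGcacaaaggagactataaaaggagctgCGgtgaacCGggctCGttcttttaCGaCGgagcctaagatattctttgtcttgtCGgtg
Gm26901: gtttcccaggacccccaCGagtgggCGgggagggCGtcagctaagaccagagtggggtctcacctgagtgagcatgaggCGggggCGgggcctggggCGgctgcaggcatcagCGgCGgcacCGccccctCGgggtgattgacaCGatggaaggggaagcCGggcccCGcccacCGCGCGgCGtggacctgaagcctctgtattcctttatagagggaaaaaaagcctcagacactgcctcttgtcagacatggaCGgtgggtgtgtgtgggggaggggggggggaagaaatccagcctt
Gm30944: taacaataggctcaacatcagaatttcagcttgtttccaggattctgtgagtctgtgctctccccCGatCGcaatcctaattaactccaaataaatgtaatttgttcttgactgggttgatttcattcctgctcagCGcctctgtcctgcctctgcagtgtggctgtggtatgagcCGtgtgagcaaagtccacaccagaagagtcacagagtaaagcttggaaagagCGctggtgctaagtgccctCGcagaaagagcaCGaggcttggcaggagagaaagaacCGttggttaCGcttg
Gm5524: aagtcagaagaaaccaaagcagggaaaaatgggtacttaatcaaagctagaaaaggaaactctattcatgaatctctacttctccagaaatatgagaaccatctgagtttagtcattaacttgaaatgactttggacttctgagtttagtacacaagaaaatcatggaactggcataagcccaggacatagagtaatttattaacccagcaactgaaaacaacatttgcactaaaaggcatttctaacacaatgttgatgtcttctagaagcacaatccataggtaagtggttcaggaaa
Gm40645: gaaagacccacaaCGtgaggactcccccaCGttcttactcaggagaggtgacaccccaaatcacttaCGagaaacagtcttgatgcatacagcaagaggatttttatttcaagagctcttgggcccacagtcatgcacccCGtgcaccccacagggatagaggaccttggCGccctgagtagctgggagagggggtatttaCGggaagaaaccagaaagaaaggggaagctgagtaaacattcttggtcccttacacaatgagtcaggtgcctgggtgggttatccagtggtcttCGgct
Mirg: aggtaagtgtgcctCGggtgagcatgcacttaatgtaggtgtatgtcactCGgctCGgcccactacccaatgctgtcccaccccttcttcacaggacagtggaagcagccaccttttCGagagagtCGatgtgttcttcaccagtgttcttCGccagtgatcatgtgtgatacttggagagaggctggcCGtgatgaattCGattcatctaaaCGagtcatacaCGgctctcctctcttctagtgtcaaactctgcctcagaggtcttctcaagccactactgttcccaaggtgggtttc

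A CG was present in 94.6% of 32851 RefSeq promoters of this length and in 91.5% of the 5202 promoters that belonged to isolated lncRNA genes. The median number of CG was 7 in all promoters and 3 in those of isolated lncRNA genes. Each start region shown except that of Gm5524 holds more than 3. No comparison of CG or GC content between classes of isolated genes was made. Only 4270 of the 5587 genes, 76.4%, had a promoter in the table, so such a comparison would have left out the rest.

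The 14 lists held 27530 to 45014 peaks for H3K9cr and 15988 to 32760 for H3K9ac, and since they give positions only, the read depth behind them is unknown. Of 10 kidney marker genes, 8 had a peak in every control library and 5 to 8 in UUO libraries, against 1 to 2 of 6 markers of other organs. Of 6 genes of injured tubules 3 to 4 had a peak in control and 4 to 6 in UUO libraries. Acss2 itself had a peak in all 14 libraries, and since a peak at a gene end need not lie in the deleted stretch, this does not check the knockout. The libraries differed at Xist, an X-linked lncRNA gene expressed from the inactive X of female cells, while the labels give no sex. Among H3K9cr libraries Xist had a peak in 1 library of each group, and among H3K9ac libraries in both WT UUO libraries, ACSS2-/- control and ACSS2-/- UUO replicate 1. Libraries with a peak at Xist had 0 to 3 peaks on the Y chromosome and the others 4 to 14. In 4 lists the peak names carry another mouse number than the label (replicate 1 of H3K9cr in both UUO groups, and both H3K9ac libraries of ACSS2-/- UUO), and groups were taken from the labels.

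Most isolated lncRNA genes carried neither mark in these kidneys. In the 14 libraries together, 3736 of 5587, or 66.9%, had no peak near either end, against 28.8% of protein-coding genes and 40.2% of the other lncRNA genes. A peak was present in at least 1 library at 1851 genes, of which 447 were marked in exactly 1 library and 147 in all 14. The share marked in every library was 2.63% of isolated lncRNA genes, 26.5% of other lncRNA genes and 50.9% of protein-coding genes. Counted by locus, 1596 of 4830 had a peak in some library and 125 had a peak in all 14. In each of these gene classes, most genes were marked in every library or in none. These shares were 50.9% and 28.8% for protein-coding genes, 26.5% and 40.2% for other lncRNA genes, and 2.63% and 66.9% for isolated ones. The other 1704 isolated lncRNA genes were marked in some libraries and not in others, as the plot of libraries per gene shows.

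**Figure D1:**
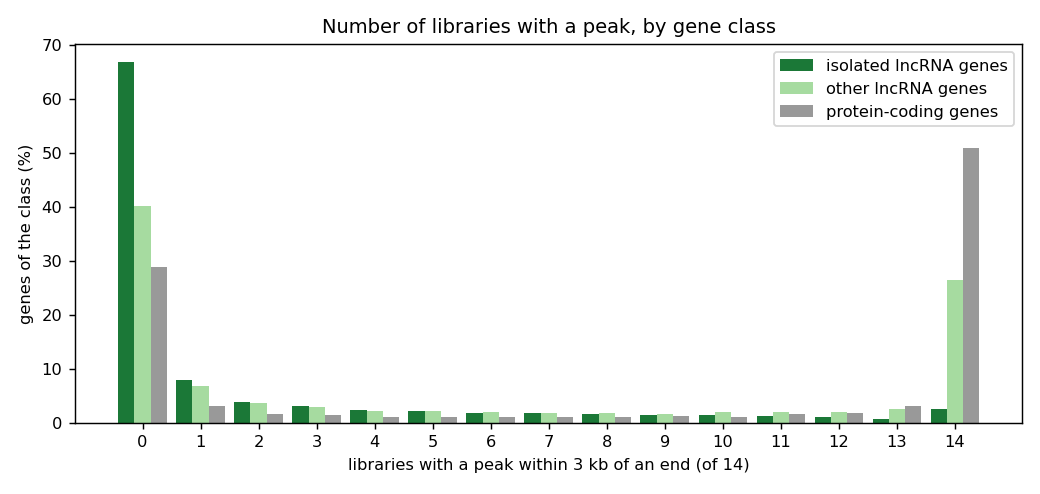
Percentage of genes in each class (vertical axis) by the number of the 14 libraries with a peak within 3 kb of either gene end (horizontal axis). Dark green bars are the 5587 isolated lncRNA genes, 66.9% of them at 0 and 2.63% at 14, light green bars the 6821 other lncRNA genes and grey bars the 20665 protein-coding genes, 50.9% of them at 14.

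H3K9cr was found at isolated lncRNA genes more often than H3K9ac. In WT control kidneys, H3K9cr peaks lay at 866 isolated genes in replicate 1 and 981 in replicate 2, which are 15.5% and 17.6%, and H3K9ac peaks lay at 468, which is 8.38%. After UUO in WT mice, the H3K9cr counts were 1055 and 877 genes (18.9% and 15.7%) and the H3K9ac counts 218 and 286 (3.90% and 5.12%). In ACSS2-/- control kidneys, H3K9cr marked 1241 and 961 genes (22.2% and 17.2%) and H3K9ac 651 (11.7%). The ACSS2-/- UUO kidneys had H3K9cr at 1034 and 730 genes (18.5% and 13.1%) and H3K9ac at 262 and 485 (4.69% and 8.68%). No H3K9ac library reached the lowest H3K9cr library, in any group or over all of them. The ratio of the mean H3K9cr share to the mean H3K9ac share was 1.97 in WT control, 3.83 in WT UUO, 1.69 in ACSS2-/- control and 2.36 in ACSS2-/- UUO kidneys. Averaged over the 4 groups on the log2 scale, H3K9cr was higher by 1.23, a ratio of 2.34 (exact two-sided permutation of the marks within groups, p = 0.00309, the smallest that its 324 arrangements allow, adjusted p = 0.0154 over 10 tests). This test treats the libraries of a group as separate, whereas the study describes both marks as profiled in the same samples. In the 5 pairs of libraries whose peak names give the same mouse, which were also alike at Xist in 5 of 5 pairs, H3K9cr was higher in 5 of 5, at 1.48 to 3.07 times the H3K9ac share. The log2 difference was 1.16 with this replicate block, but 5 pairs cannot pass the threshold (exact permutation p = 0.0625, the smallest possible, adjusted p = 0.3125). Pairing by the replicate number of the label gave 1.35 over 6 pairs, with an exact permutation p = 0.0313 and adjusted p = 0.156, and only 3 of these 6 pairs were alike at Xist.

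**Figure D2:**
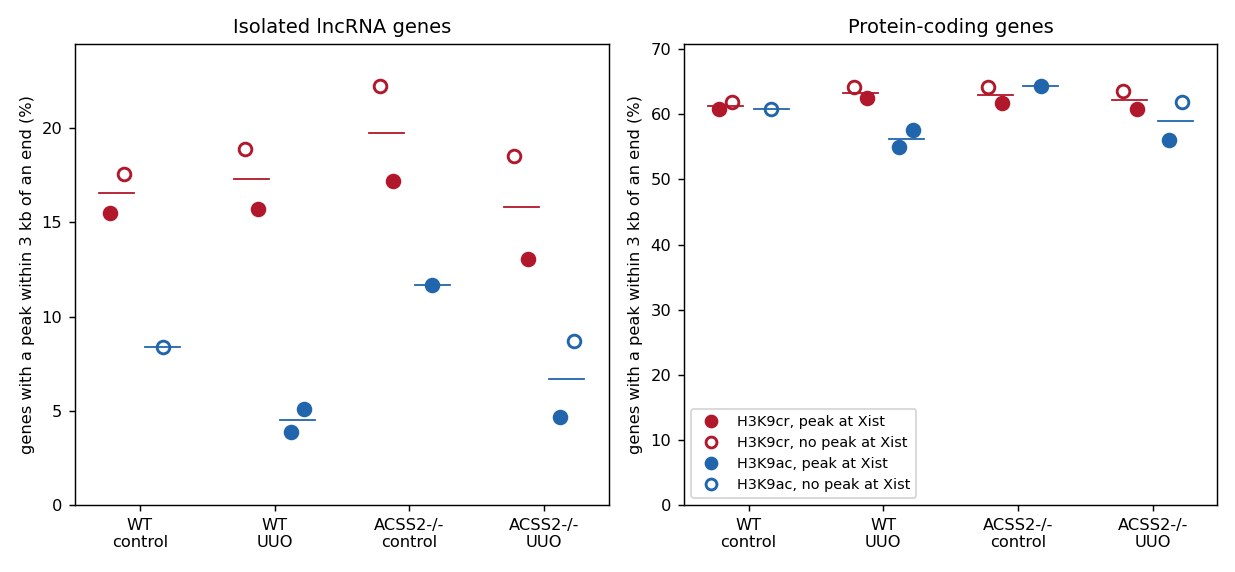
Percentage of isolated lncRNA genes (left) and of protein-coding genes (right) with a peak within 3 kb of either end, 1 point per library, with a line at the mean of each group and mark. The vertical axes differ in scale and both start at 0. Red is H3K9cr and blue H3K9ac, and filled points are libraries with a peak at Xist. At isolated lncRNA genes every red point, from 13.1% to 22.2%, lies above every blue point, from 3.90% to 11.7%, whereas at protein-coding genes the colours overlap.

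At protein-coding genes the marks covered similar shares, 60.8% to 64.1% in H3K9cr libraries and 55.0% to 64.3% in H3K9ac libraries, a log2 ratio of 0.06. When the share of isolated lncRNA genes was divided by the share of protein-coding genes in the same library, the quotient was 0.215 to 0.347 for H3K9cr and 0.0710 to 0.181 for H3K9ac. The quotient was higher for H3K9cr by 1.18 on the log2 scale (exact permutation test, p = 0.00309, adjusted p = 0.0154), and by 1.12 in the 5 pairs by peak name, where the call was lost in the same way (exact permutation, adjusted p = 0.3125). H3K9cr lists are also longer. With only the 15988 longest peaks of each library, 7.66% to 9.38% of isolated lncRNA genes carried H3K9cr and 3.90% to 4.73% carried H3K9ac, while protein-coding genes had H3K9cr at 46.6% to 53.6% and H3K9ac at 55.0% to 57.6%. The log2 difference at isolated genes was then 0.89 for the share and 1.03 for the quotient. Isolated lncRNA genes received 3.51% to 4.05% of the autosomal H3K9cr peaks and 1.54% to 2.36% of the H3K9ac peaks.

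**Figure D3:**
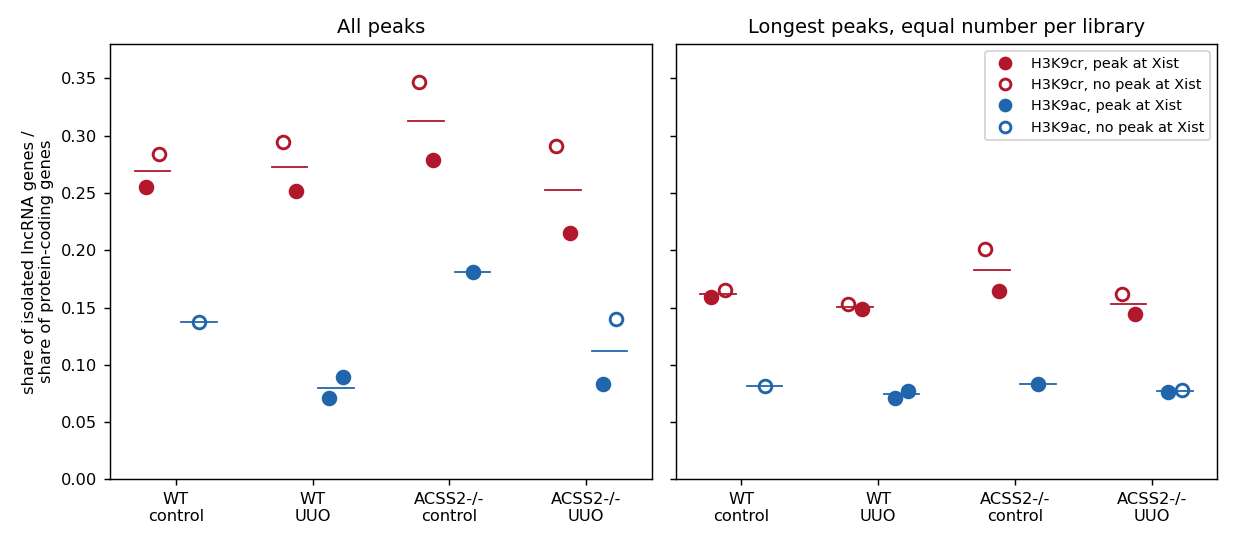
Share of isolated lncRNA genes with a peak divided by the share of protein-coding genes with a peak in the same library, from all peaks (left) and from the 15988 longest peaks of each library (right). Each point is a library, lines are group means, and filled points have a peak at Xist. H3K9cr (red) lies at 0.215 to 0.347 on the left and 0.144 to 0.201 on the right, above H3K9ac (blue) at 0.0710 to 0.181 and 0.0710 to 0.0834.

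Where H3K9ac was present at an isolated lncRNA gene, H3K9cr was usually present too. When each H3K9ac library was set beside each H3K9cr library of its group, 12 pairs in all, 76.1% to 97.7% of the isolated genes with H3K9ac also had H3K9cr, with a median of 89.7%. Of those with H3K9cr, 20.2% to 57.1% had H3K9ac, with a median of 36.2%. At protein-coding genes the corresponding medians were 97.6% and 92.8%. Over all libraries 983 isolated genes had H3K9cr in at least 1 library and never H3K9ac, 88 had H3K9ac and never H3K9cr, and 780 had both.

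Peaks at isolated lncRNA genes were shorter than at protein-coding genes and were shared by fewer replicates, without overlap between the ranges in either measure. The median of the longest peak at a marked isolated gene was 814 to 1208 bp for H3K9cr and 615 to 905 bp for H3K9ac, against 1416 to 1959 and 1261 to 2356 bp at protein-coding genes. Of the isolated genes marked in at least 1 of 2 replicates, 42.3% to 68.5% were marked in both, whereas the range at protein-coding genes was 88.7% to 94.0%. The lists give no peak height, so whether the peaks are also weaker could not be measured.

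Peaks gathered at the 5′ end of isolated lncRNA genes, where transcription starts. Strand was known for 2823 of the 3598 isolated genes longer than 6 kb, whose ends can be told apart with this window. Among these, H3K9cr lay within 3 kb of the 5′ end at 9.17% to 15.4% and within 3 kb of the 3′ end at 5.07% to 9.46%, with medians of 12.1% and 7.12%. For H3K9ac the ranges were 2.80% to 8.04% at the 5′ end and 0.992% to 3.83% at the 3′ end, with medians of 4.87% and 1.95%. The 5′ end had the higher share in 14 of 14 libraries. At 250 bp inside the gene, 4.36% to 8.36% of the isolated genes were covered by an H3K9cr peak and 1.38% to 4.29% by an H3K9ac peak. At 10 kb upstream the coverage was 0.886% to 2.13% and 0.142% to 0.815%. At the same 250 bp, protein-coding genes were covered at 56.5% to 61.1% by H3K9cr and at 49.1% to 62.6% by H3K9ac.

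**Figure D4:**
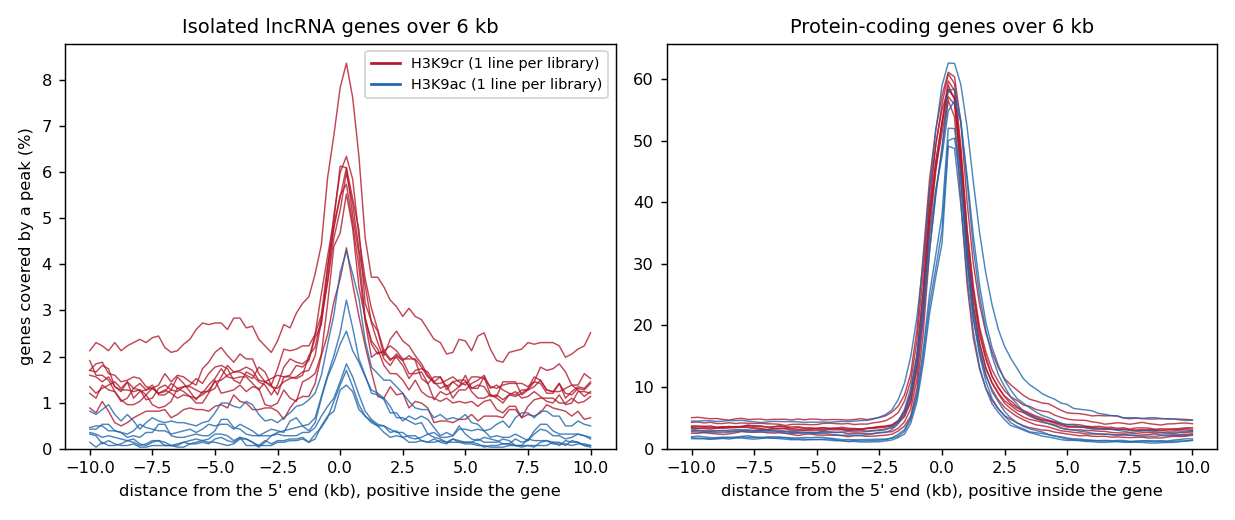
Percentage of genes covered by a peak (vertical axes, which differ in scale) at each distance from the annotated 5′ end in kb, positive inside the gene, 1 line per library, H3K9cr red and H3K9ac blue. The left panel shows 2823 isolated lncRNA genes and the right panel 12274 protein-coding genes over 6 kb with a known strand. At isolated lncRNA genes the lines are highest at 0 to 250 bp, at 4.36% to 8.36% for H3K9cr and 1.38% to 4.29% for H3K9ac at 250 bp.

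The isolated genes with peaks in all 14 libraries lay closer to a protein-coding gene end, with a median distance of 33323 bp, than those marked in 1 to 13 libraries, with 42855 bp, or those in none, with 78711 bp. Their median length was 7756 bp, against 8781.5 and 10107 bp. The nearest protein-coding gene had a peak in all 14 libraries at 69.4% of the always-marked genes, 67.0% of those marked in 1 to 13 libraries and 45.7% of the unmarked ones. These are descriptions without a test. By chromosome, the share of isolated genes with a peak in some library ran from 27.3% on chromosome 6 to 43.5% on chromosome 17.

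Malat1 (chr19:5795690-5802672), an abundant nuclear RNA linked to splicing bodies, had the longest peaks of the always-marked genes by the mean over the 14 libraries. Its H3K9cr peaks measured 12188 and 11988 bp in WT control, 11692 and 11987 in WT UUO, 12892 and 7759 in ACSS2-/- control, and 7013 and 5962 bp in ACSS2-/- UUO kidneys. Its H3K9ac peaks measured 11827 bp in WT control, 11248 and 9886 in WT UUO, 14276 in ACSS2-/- control, and 9301 and 10108 in ACSS2-/- UUO kidneys. These lengths exceed the gene itself, which spans 6983 bp, in all libraries but ACSS2-/- UUO H3K9cr replicate 2. Next came Gm14488 and Gm39782, which share a locus on chromosome 2 and a mean peak of 8368 bp, then 2310001H17Rik near Cd69 on chromosome 6 with 6303 bp and 2810410L24Rik on chromosome 11 with 5382 bp. At 2310001H17Rik the neighbouring gene Cd69, an early activation marker of lymphocytes, had a peak in 3 libraries. Its H3K9cr peak was 4610 and 4327 bp in WT control but 12672 and 10794 in WT UUO kidneys, and 11480 and 5658 in ACSS2-/- control but 11354 and 5122 in ACSS2-/- UUO kidneys. With 2 libraries per group, the WT groups did not overlap there and the ACSS2-/- groups did. No test of length was made, and the ACSS2-/- control libraries alone ran from 5658 to 11480 bp.

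Of 56 lncRNA genes listed by name for their known roles, 49 were autosomal lncRNA genes of the annotation and 22 met the isolation rule. Peaks were present in all 14 libraries at 7 of them, in some libraries at 8 and in none at 7. Beside Malat1 the always-marked ones were Pvt1, next to the growth regulator Myc, Lncpint, a target of p53, Morrbid, which controls the survival of short-lived myeloid cells through its neighbour Bcl2l11, Snhg5, a small nucleolar RNA host, Mir99ahg, named as the host of a miRNA cluster, and Carmn, a smooth muscle lncRNA that hosts Mir143 and Mir145a. Genes never marked were the imprinted H19 and Mirg, the neural Rmst, Sox2ot, Mir124a-1hg and Mir9-3hg, and Mir100hg. The gene nearest to H19, Mrpl23, had peaks in 14 of 14 libraries and that nearest to Sox2ot, Sox2, in 0.

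Carmn peaks were longer in control than in UUO libraries for H3K9cr, at 6200 and 4932 bp in WT control, 9776 and 3480 in ACSS2-/- control, 2471 and 2008 in WT UUO, and 1472 and 1378 bp in ACSS2-/- UUO kidneys. The control and UUO values did not overlap. For H3K9ac they were 4926 and 8957 bp in the WT and ACSS2-/- control libraries, and 1581, 2564, 2779 and 2626 bp in the UUO libraries, again without overlap. Longer peaks in control libraries were not particular to Carmn. The median of the longest peak over all marked isolated genes was 965 to 1208 bp in control and 814 to 891 bp in UUO libraries for H3K9cr. For H3K9ac it was 746 to 905 bp in control and 615 to 692 bp in UUO libraries. At Lncpint the peaks measured 3279 to 6805 bp over the H3K9cr and 3254 to 7367 bp over the H3K9ac libraries. No test was made of the length at a single gene.

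Several known genes were marked in part of the libraries. Trp53cor1, the p53-induced neighbour of Cdkn1a also called lincRNA-p21, had H3K9cr in 8 of 8 libraries, at 412 to 1682 bp, and H3K9ac in 3 of 6. Norad, which holds back Pumilio proteins and keeps the genome stable, had H3K9cr in 7 libraries and H3K9ac in 5. Mir17hg, the host of the miR-17 to miR-92 cluster, had H3K9cr of 1940 to 2488 bp in every library but H3K9ac in 4 of 6, and Snhg11 also had H3K9cr in 8 and H3K9ac in 4. Marks were rare at Miat, with 2 libraries, Lncenc1, with 3, Mirt1, with 4, and Platr4, with 1. A further 62 isolated genes carry a descriptive symbol, and 8 of these had peaks in all 14 libraries, among them Snhg17, Dancr and Snhg20, while 32 had none. The other 5503 have systematic symbols.

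A miRNA gene lay inside 43 isolated lncRNA genes. Of these hosts 8 were marked in all 14 libraries, 13 in some and 22 in none, so that hosts made up 5.44% of the always-marked and 0.589% of the unmarked isolated genes. The always-marked hosts were Carmn, Lncppara with Mirlet7c-2 and Mirlet7b, E130102H24Rik with Mir101a, and Dubr, Snhg20, Gm16863, 2610307P16Rik and 5730522E02Rik. The unmarked ones included Lincmd1 with the muscle miRNAs Mir206 and Mir133b, Mir1a-1hg with Mir1a-1 and Mir133a-2, Mir205hg, and the hosts of Mir216a, Mir216b and Mir217, which are best known from the pancreas.

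A peak in every H3K9cr library and in no H3K9ac library was found at 37 isolated lncRNA genes, 2% of the 1851 with a peak, where 0.32% of all autosomal genes with a peak had this pattern. Of the 75 such genes on the autosomes, 37 were isolated lncRNA genes, 18 other lncRNA genes and 8 protein-coding. The reverse pattern was seen at 0 isolated genes and at 0.00427% of all genes. The longest H3K9cr peaks were at Gm15348 near Tubgcp3, with 771 to 4116 bp over the 8 libraries, Gm30944 near Fbxw7, with 1272 to 3306 bp, Gm33538 near Map4k3, with 900 to 3729 bp, Gm39623 near Hs6st1, with 345 to 6306 bp, and Gm45924 near Atp6v1c1, with 1012 to 2524 bp. At each of these 5 genes the nearest protein-coding gene had peaks in all 14 libraries, as it had at 91.9% of the 37. At Gm39623 the peak was 572 to 837 bp in ACSS2-/- UUO and 345 to 892 bp in WT UUO libraries, all below the 1708 to 6306 bp of the control libraries. The median over all marked isolated genes was also lower in every UUO than in every control H3K9cr library. With equal numbers of peaks 24 genes had this pattern, and without the ACSS2-/- control H3K9ac library 63.

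**Figure D5:**
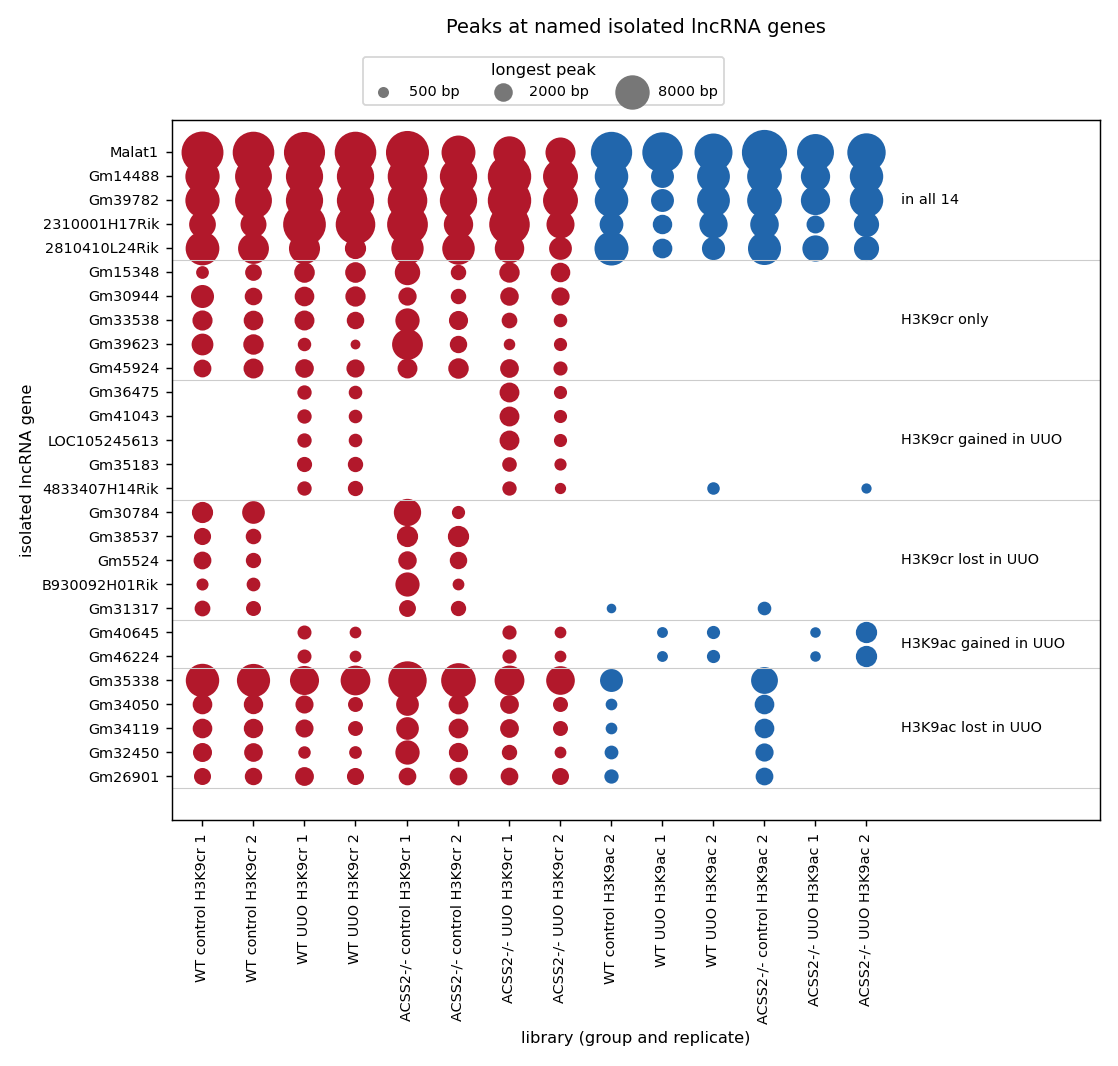
Peaks at isolated lncRNA genes named by list (rows), in each of the 14 libraries (columns, H3K9cr red, H3K9ac blue), where the size of a point grows with the length of the longest peak within 3 kb of an end and no point means no peak. Malat1 has points in all 14 columns, the H3K9cr-only genes in 8 and 0, and Gm40645 and Gm46224, which share a locus, in the UUO columns of both marks only.

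Between UUO and control kidneys, no difference in the share of isolated lncRNA genes with H3K9cr was detected beyond the spread between libraries. The mean was 16.5% ± 2.72 (SD, n = 4) in UUO and 18.1% ± 2.87 (SD, n = 4) in control libraries, a log2 ratio of −0.13 (exact two-sided permutation test, p = 0.486, adjusted p = 0.607, smallest possible p = 0.0286). Even that smallest p could not have passed the threshold after adjustment over the 10 tests. The log2 ratio was 0.06 within WT and −0.32 within ACSS2-/- mice, and a permutation of libraries within genotypes gave an exact p of 0.278 for the difference, with 0.0556 the smallest possible. The H3K9ac share was lower in each of the 4 UUO than in the control library of the same genotype, with a log2 ratio of −0.84, but over all 6 libraries the groups overlapped, since ACSS2-/- UUO replicate 2 at 8.68% lay above WT control at 8.38%. The exact permutation test gave p = 0.267, adjusted p = 0.607, and could not have gone below 0.0667. With the 15988 longest peaks of each library, this log2 ratio was −0.13 (exact permutation test, adjusted p = 0.4). The control libraries, at 4.53% and 4.73%, then lay above the UUO libraries, at 3.90% to 4.49%. At this setting the quotient over protein-coding genes gave log2 ratios of −0.12 for H3K9ac and −0.18 for H3K9cr. Neither passed the threshold (exact permutation test, adjusted p = 0.167 for both).

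For H3K9cr, the presence of a peak at Xist ran with the share of marked isolated genes. H3K9cr libraries with it had shares of 13.1% to 17.2% and those without it 17.6% to 22.2%, with no overlap. The lists of those with it were shorter in each of the 4 groups. The H3K9ac shares overlapped, at 3.90% to 11.7% with a peak at Xist and 8.38% to 8.68% without. Within the H3K9cr libraries with a peak at Xist the log2 ratio of UUO to control was −0.19, and within the others −0.09. For H3K9ac it was −1.35 with a peak at Xist, 3 libraries against 1, and 0.05 without, 1 against 1. The share was higher for H3K9cr than for H3K9ac in both subsets without overlap, at log2 ratios of 1.28 and 1.18 between the pooled means.

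At single genes, H3K9cr was gained in UUO, with a peak in 4 of 4 UUO and 0 of 4 control libraries, at 13 isolated lncRNA genes of 10 loci. That is 0.737% of the 1763 with an H3K9cr peak, near the 0.655% of all autosomal genes. Without ACSS2-/- UUO replicate 2 the count was 49 and without ACSS2-/- control replicate 1 it was 26. A locus on chromosome 13 that holds Gm36475, Gm41043 and LOC105245613, with Pik3r1, a regulatory subunit of phosphoinositide 3-kinase, as the nearest protein-coding gene, had peaks of 1055 and 910 bp in WT UUO and 2350 and 831 bp in ACSS2-/- UUO kidneys. Gm35183 (chr19:44272175-44278225), near the fatty acid desaturase gene Scd2, had 1223 and 1252 bp in WT UUO and 1104 and 677 bp in ACSS2-/- UUO kidneys. 4833407H14Rik, near the MAP kinase phosphatase gene Dusp5, had 1059 and 1240 bp, and 1054 and 533 bp, and its H3K9ac peak was also seen in UUO libraries only, in 2 of 4. Neither mark had a peak there in a control library.

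The loss of H3K9cr in UUO, the opposite pattern, was found at 30 isolated genes of 29 loci. That is 1.70%, against 0.721% of all autosomal genes, 0.919% of other lncRNA genes and 0.382% of protein-coding genes. Without WT control replicate 1 the count was 61, and without replicate 1 of WT UUO or of ACSS2-/- UUO it was 50 or 51. Gm30784 (chr6:141866356-141875620), near Slco1a4, an organic anion transporter gene, had H3K9cr peaks of 2728 and 3191 bp in WT control and 4829 and 844 bp in ACSS2-/- control kidneys. Gm38537 near Foxo1 had 1651 and 1296 bp, and 2736 and 2749 bp. Gm5524, whose start region without CG is given above and whose nearest protein-coding gene end is 873935 bp away, had 1806 and 1248 bp in WT and 1982 and 1723 bp in ACSS2-/- control kidneys. B930092H01Rik near Tle3 and Gm31317 near Neurod2 complete the 5 with the longest peaks. H3K9ac was absent from all 6 libraries at the first 4 of these genes and was seen in the 2 control libraries at Gm31317.

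H3K9ac was gained in UUO at 2 isolated genes, Gm40645 and Gm46224, 0.230% of the 868 with an H3K9ac peak against 0.14% of all genes, and at 5 without WT UUO replicate 1. They are neighbours on chromosome 10 and share their peaks, 23409 bp and more from Lilrb4a, an inhibitory receptor gene of myeloid cells that had a peak in 2 libraries. H3K9ac measured 477 and 841 bp in WT UUO and 434 and 2759 bp in ACSS2-/- UUO kidneys. H3K9cr was gained there too, at 989 and 603 bp, and 1021 and 605 bp. Of 6 leukocyte marker genes, 2 had a peak in every control library and 2 to 5 in UUO libraries, and their part in these peaks was not tested.

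H3K9ac was lost in UUO at 74 isolated lncRNA genes of 64 loci, 8.53% of the 868, against 2.75% of all autosomal genes, 4.70% of other lncRNA genes and 1.68% of protein-coding genes. With equal numbers of peaks 16 such genes were counted, and the 2 control libraries hold 25585 and 32760 peaks against 15988 to 24571 in the UUO libraries. Without the WT control library the count was 238, without ACSS2-/- control 125 and without ACSS2-/- UUO replicate 2 129. H3K9cr was present in 8 of 8 libraries at each of the 5 genes with the longest H3K9ac peaks. Gm35338 (chr11:94140394-94172671), near Spag9, had H3K9ac peaks of 3271 bp in WT control and 4652 bp in ACSS2-/- control kidneys, and H3K9cr peaks of 5374 to 10111 bp throughout. Gm34050 and Gm34119, neighbours near Arhgap29, had H3K9ac of 598 and 2294 bp, Gm32450 near Depdc1b 955 and 1909 bp, and Gm26901 near Pcmtd1 1049 and 1795 bp. Mexis, a lncRNA beside the cholesterol exporter gene Abca1, belonged to the same list, with H3K9ac of 494 bp in WT control and 1448 bp in ACSS2-/- control kidneys and H3K9cr in 6 of 8 libraries, and was named after its values were seen.

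Between genotypes, too, the share of isolated lncRNA genes with H3K9cr differed by less than the spread between libraries. The log2 ratio of ACSS2-/- to WT was 0.07, with shares of 13.1% to 22.2% in ACSS2-/- and 15.5% to 18.9% in WT libraries (exact two-sided permutation test, p = 0.686, adjusted p = 0.743). Here too the smallest possible p, 0.0286, could not have passed the threshold after adjustment over the 10 tests. The log2 ratio was 0.25 within control and −0.13 within UUO kidneys. Without ACSS2-/- control replicate 1 the ratio over all libraries was −0.06. The H3K9ac shares were 4.69% to 11.7% in ACSS2-/- and 3.90% to 8.38% in WT libraries, a log2 ratio of 0.52, and the exact permutation test gave p = 0.4, adjusted p = 0.607, where 0.1 is the smallest possible. The quotient over protein-coding genes gave log2 ratios of 0.06 for H3K9cr and 0.44 for H3K9ac, with adjusted p = 0.743 and 0.607 in the same permutation test.

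Across operations, H3K9cr was present in all 4 ACSS2-/- and absent from all 4 WT libraries at 2 isolated genes, where 0.0354% of all autosomal genes with a peak had this pattern. Gm32965 near Smad5 had peaks of 774 and 1002 bp in ACSS2-/- control and 585 and 346 bp in ACSS2-/- UUO kidneys. Gm34667, on chromosome 12 between Mirg and Dio3, which is its nearest protein-coding gene at 255238 bp, had 564 and 845 bp, and 328 and 344 bp. The reverse was seen at 0 isolated genes, against 0.0177% of all genes. Neither count was stable, since leaving out a single library gave 3 to 5 genes in ACSS2-/- only and 0 to 4 in WT only, and equal numbers of peaks gave 0 and 1.

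Within UUO kidneys, with 2 libraries against 2, H3K9cr was present in ACSS2-/- only at 30 isolated genes and in WT only at 57. Of the 1411 isolated genes with an H3K9cr peak in UUO these are 2.13% and 4.04%, against 0.679% and 1.63% of all autosomal genes. Among other lncRNA genes the shares were 0.744% and 2.29%. The ACSS2-/- only count was 186 without ACSS2-/- UUO replicate 2, which has the shortest H3K9cr list, 79 without its replicate 1, and 69 and 46 without replicates 1 and 2 of WT UUO. The WT only count was 206 and 120 without replicates 2 and 1 of WT UUO, and 194 without ACSS2-/- UUO replicate 1. With equal numbers of peaks the counts were 18 and 21. The longest peaks in WT only were at Gm41331, with 1061 and 1991 bp, followed by Gm30509 near the kinase gene Sik1, with 959 and 1830 bp, and Gm40112 near Tspan2, with 930 and 1437 bp. At Gm41331 no control library had H3K9cr, whereas H3K9ac was seen in WT UUO replicate 2 and in both ACSS2-/- UUO libraries. Among genes in ACSS2-/- only, Gm19276 near Rai14, with 1061 and 1373 bp, Gm39742 near the zinc exporter gene Slc30a1, with 1557 and 375 bp, and Gm29864 near Hpcal1, with 868 and 994 bp, had H3K9cr in all 4 control libraries, so that the WT UUO libraries were the ones without it. AY036118 on chromosome 17, beside repeated ribosomal RNA sequence where reads cannot be placed with certainty, led this list with 367 and 2981 bp, and Gm52779 near Chic2 had 1236 and 752 bp.

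H3K9ac in UUO kidneys was present in ACSS2-/- only at 27 isolated genes, 4.66% of 579, and in WT only at 3, 0.518%, where the background was 1.75% and 0.161% of all autosomal genes. Among other lncRNA genes the shares were 2.31% and 0.253%. Each of the 5 in ACSS2-/- only with the longest peaks had H3K9cr in 8 of 8 libraries. They were Gm30789 near Cyp7b1, with H3K9ac of 315 and 1694 bp, D630024D03Rik near Cpeb4, with 541 and 1454 bp, Gm33224 and Gm39693, which share a locus near Pou2f1, with 810 and 1066 bp, and Gm19696 near Zfp36l2, with 427 and 1055 bp. All of these but Gm30789 also had H3K9ac in both control libraries. The 3 in WT only were Gm33185 near Adnp, with 429 and 973 bp, Gm30785 near the carnitine transporter gene Slc22a5, with 436 and 761 bp, and Gm29928 near Gadd45a, with 668 and 455 bp. With equal numbers of peaks there were 10 in ACSS2-/- only and 8 in WT only, so that most of the difference between the counts was gone. The ACSS2-/- only count was 219 and 60 without replicates 1 and 2 of ACSS2-/- UUO, and 43 and 52 without replicates 1 and 2 of WT UUO. The WT only count was 41 and 16 without replicates 1 and 2 of WT UUO, and 23 without ACSS2-/- UUO replicate 2.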

How the data were processed

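H3K9cr and H3K9ac were profiled by ChIP-seq in whole mouse kidneys, and 14 lists of peaks were analysed here, 1 per library. According to the methods, the authors cleaned the reads, aligned them with Bowtie2, discarded organelle, poorly mapped and duplicated reads, and ran MACS2 with a set q-value limit. The submitters' processing notes name mm10, Bowtie2, MACS2 and ChIPseeker without versions. The deposited files hold peak positions and names only, with no count, height, score or q-value, so read depth is unknown and a longer list can reflect deeper sequencing. The number of peaks per list is the only measure of yield.

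Genes came from RefSeq on GRCm38.p6, the assembly that mm10 denotes. The members and lists were chosen with earlier results of these data known. Groups were taken from the sample titles. A gene was marked when a peak overlapped the 3 kb on either side of an end by at least 1 bp. Strand came from the RefSeq promoter table. Shares were compared by exact two-sided permutation over libraries, with Benjamini-Hochberg adjustment over 10 tests and a threshold of 0.05. Gained and lost genes, with a peak in all libraries of one side and in none of the other, were counted without a test and set beside the same count over all autosomal genes with a peak. The permutation of operation labels within genotypes, the counts between genotypes within UUO and the pairing of marks by the mouse number in the peak names were added after the data were seen.

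Named genes were up to 5 per list with the longest peaks averaged over the libraries that have them, the 5 such genes among those marked in all 14 libraries, and a list of 56 known lncRNA genes. Alternatives were a 1 kb window, an overlap of 50% of the shorter feature, a distance of 50 kb, the 15988 longest peaks of each library, merged loci, division by other lncRNA genes, a replicate block, and leaving out each library. Python 3.11.15, numpy 2.4.6, pandas 2.3.3 and matplotlib 3.10.9 were used. The scoring of isolated genes was checked against bedtools 2.31.1 in an H3K9cr and an H3K9ac list. It differed at 0 of 11174 genes, each gene counted once per list. Simulated gains of H3K9cr in UUO, placed among 47042 genes, were set to meet the calling rule exactly. Their recovery of 100% therefore checks the code and does not measure sensitivity. Input and RNA-seq libraries were not used here.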

Additional observations from a re-analysis of the deposited data

How the results depend on the processing

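The higher share of H3K9cr at isolated lncRNA genes kept its direction under every alternative run, and its side of the threshold under the 1 kb window, the 50% overlap, the 50 kb distance, equal numbers of peaks, merged loci, division by other lncRNA genes, and without each library (log2 1.14 to 1.39, and 1.09 to 1.31 for the quotient over protein-coding genes). With the replicate block, which keeps 6 pairs with the same group and number, it was 1.35 and 1.27, with an exact permutation p = 0.0313, the smallest possible, and adjusted p = 0.156, where the adjusted p over all alternatives of either measure ran from 0.0154 to 1. Pairing the marks by mouse as the peaks are named, chosen after seeing the data, gave a replicate block of 5 pairs with 1.16 and 1.12 (exact permutation p = 0.0625, the smallest possible, adjusted p = 0.3125). Under the replicate block by label no other call changed. The lists differ in length and hold no peak strength, so neither depth nor signal could be taken into account. The smallest p of the H3K9ac tests of operation and genotype, 0.0667 and 0.1, is above 0.05. That of the H3K9cr tests, 0.0286, is below 0.05 but could not have stayed there after adjustment over the 10 tests.

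The effects of operation and genotype passed no threshold under any alternative, but none could have, given the smallest p-values stated above. No alternative allowed more arrangements of the libraries than the main tests did. The calls therefore do not show whether these effects are stable, and only the log2 ratios can be compared. Without each library in turn, the log2 ratio of UUO to control was −0.20 to −0.02 for H3K9cr (quotient −0.21 to −0.05) and −1.13 to −0.58 for H3K9ac (quotient −0.97 to −0.52). The log2 ratio of ACSS2-/- to WT was −0.057 to 0.19 for H3K9cr (quotient −0.053 to 0.17), turning negative without ACSS2-/- control replicate 1, and 0.21 to 0.89 for H3K9ac (quotient 0.17 to 0.76).

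Counts of genes moved more. At 50 kb, where fewer genes remain, H3K9cr was gained in UUO at 7 genes and lost at 15, H3K9ac gained at 0 and lost at 26, H3K9cr gained in ACSS2-/- at 1, and H3K9cr found without H3K9ac at 16. With the 1 kb window, H3K9ac was lost at 48 and H3K9cr found without H3K9ac at 20. With equal numbers of peaks the counts were 8 for H3K9cr gained, 5 for H3K9ac gained, 16 for H3K9ac lost, 0 and 1 for H3K9cr gained and lost in ACSS2-/-, and 24 for H3K9cr without H3K9ac. By merged loci, H3K9ac was gained in UUO at 1 and H3K9cr gained in ACSS2-/- at 1. Without each library, H3K9cr was gained in UUO at 13 to 49 and lost at 30 to 61, H3K9ac gained at 2 to 5 and lost at 75 to 238, H3K9cr gained in ACSS2-/- at 3 to 5 and lost at 0 to 4, and H3K9cr found without H3K9ac at 37 to 63 and the reverse at 0. Fewer libraries make such a pattern easier to meet. Between genotypes within UUO, H3K9cr was found in ACSS2-/- only at 30 to 186 genes and in WT only at 57 to 206, and H3K9ac at 27 to 219 and 3 to 41, without each library. For these 4 counts in the same order, the values were 15, 21, 9 and 1 at 50 kb and 18, 21, 10 and 8 with equal numbers of peaks.

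The split by a peak at Xist was chosen after seeing the data. With libraries that have it, the log2 difference of the marks was 1.28 (quotient 1.21, exact permutation p = 0.0833) and the ratio of ACSS2-/- to WT for H3K9cr −0.044 (quotient −0.038). H3K9cr was then gained in UUO at 52 and lost at 114, H3K9ac lost at 333, H3K9cr gained and lost in ACSS2-/- at 19 and 20, and H3K9cr found without H3K9ac at 71. Within UUO the 4 counts were 141, 288, 60 and 23. With the other libraries the difference of the marks was 1.08 (quotient 1.05, exact permutation p = 0.5) and the ratio of UUO to control for H3K9ac 0.051 (quotient 0.026). H3K9cr was gained at 94 and lost at 125, H3K9ac gained at 167 and lost at 150, H3K9cr gained and lost in ACSS2-/- at 37 and 13, and H3K9cr found without H3K9ac at 171, with 233 and 254 within UUO. Both p-values are the smallest possible in these subsets, where some groups have no H3K9ac library.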

Other observations

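Beside the lists described, 62 isolated lncRNA genes carry a descriptive symbol, and 22 of them were marked in some libraries and not in others. Lexis1, which lies with Mexis beside the cholesterol exporter gene Abca1, had H3K9cr in 8 of 8 libraries, at 762 to 2344 bp, and H3K9ac in 4 of 6, with the H3K9ac peak missing from WT UUO replicate 2 and ACSS2-/- UUO replicate 1. Cistr had a peak in 10 libraries, Bloodlinc, known from red blood cell precursors, in 9, Halr1, which lies beside the HoxA genes, in 8, Lncbate6, known from brown fat, in 7 and Redrum in 3. Among isolated miRNA hosts marked in part of the libraries, Gm32817 and Gm53058, which both contain Mir193b and Mir365-1, had H3K9cr in 6 and H3K9ac in 3 libraries, and C130071C03Rik, with Mir9-2, had H3K9cr in 7 and H3K9ac in 2. Gm31088, with Mir145b, had H3K9cr in 8 and H3K9ac in 2. These genes were named after their values were seen, and no test was made.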
